A study of Mus musculus with 6 samples.

Results

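Iron and heme handling was followed in peritoneal macrophages (PMs) through 10 genes chosen by name, out of 32879 genes with a record in the count files. The genes were Trf, Tfrc, Slc11a1, Slc11a2, Fth1, Ftl1, Slc48a1, Hmox1, Blvrb and Slc40a1, and their counts were summed over 22 RefSeq records. PMs were sorted as CD11b+ F4/80+ cells from 3 mice of each group, and each mouse gave 1 RNA-seq library. Control mice were female [NZW × BALB/c]F1 mice of 33, 33 and 30 weeks that do not develop lupus. Diseased-BWF1 mice were female [NZB × NZW]F1 mice of 31, 31 and 34 weeks with proteinuria and antibodies against double-stranded DNA. All 6 mice have an NZW parent, and the labels name no treatment. The groups differ in the other parent as well as in disease, and these differences cannot be told apart.

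Macrophages take up iron bound to transferrin through the transferrin receptor, and they also recover iron from the heme of engulfed cells. Heme is moved out of the phagolysosome, opened by heme oxygenase and turned into biliverdin and then bilirubin, and the iron set free is stored in ferritin or leaves the cell through ferroportin. Ferritin is a hollow shell built of heavy (H) chains, which oxidize iron, and light (L) chains, which help to form the mineral core. Iron regulatory proteins bind a short RNA hairpin, the iron-responsive element, when iron is scarce. A hairpin before the coding sequence then blocks translation, and hairpins behind it protect the mRNA from decay.

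The hairpin sequences are shown because iron regulatory proteins are known to act on ferritin, ferroportin and transferrin receptor mRNA through such elements. The curated transcripts were searched for a fixed pattern, read on the mRNA strand, of an unpaired C, a stem of 5 bases, the loop CAGTGN and 5 bases that pair with the stem, G-U pairs included. The pattern was found in the 5′ untranslated region (UTR) of Slc40a1, Fth1 and Ftl1 and at 4 places in the 3′ UTR of Tfrc. Each sequence below has 29 bases, written 5′ to 3′ on the mRNA strand as DNA letters, and the capitals mark the loop of 6 bases. Positions are those of GRCm38 with the GENCODE annotation.
Slc40a1, 5′ UTR, chr1:45925465-45925493, minus strand: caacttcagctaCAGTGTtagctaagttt
Fth1, 5′ UTR, chr19:9982732-9982760, plus strand: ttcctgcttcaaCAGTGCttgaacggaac
Ftl1, 5′ UTR, chr7:45459779-45459807, minus strand: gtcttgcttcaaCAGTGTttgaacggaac
Tfrc, 3′ UTR, chr16:32631219-32631247, plus strand: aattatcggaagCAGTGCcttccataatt
Tfrc, 3′ UTR, chr16:32631598-32631626, plus strand: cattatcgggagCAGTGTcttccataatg
Tfrc, 3′ UTR, chr16:32631663-32631691, plus strand: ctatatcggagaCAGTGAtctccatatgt
Tfrc, 3′ UTR, chr16:32631710-32631738, plus strand: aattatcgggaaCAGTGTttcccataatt
The H and L ferritin hairpins have the same stem. Among all annotated genes, 0.148% held a match in a 5′ UTR (31 of 20899), 0.635% in a coding sequence and 0.595% in a 3′ UTR (129 of 21685). The other 6 members had no match, Slc11a2 among them, although an iron-responsive element is known in the 3′ UTR of some of its transcripts, so a missing match says only that these letters are not in the transcripts searched.

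Total counts per library ranged from 3629901 to 5003360, and a floor of 3 counts corresponded to 0.652 to 0.888 CPM (counts scaled to a common total on genes) and covers counting error only. The genes of the sorted macrophage markers were abundant in all 6 mice, with 7060 to 8562 normalized counts for Adgre1 (F4/80) and 20818 to 27725 for Itgam (CD11b). Of 8 macrophage markers, 4 had groups that did not overlap, all lower in diseased-BWF1 mice, against 11.2% of all tested genes. Their log2 fold changes with edgeR were -0.17 (Adgre1), -1.10 (Cd68), -0.55 (Icam2) and -0.53 (Timd4). The other 4 overlapped, at 0.41 (Csf1r), 0.13 (Itgam), 0.44 (Mertk) and -0.04 (Gata6). No adjusted p of the 8 was under 0.05 with edgeR, while that of Cd68 was 1.3e-04 with DESeq2. The 8 markers summed to 40733 to 47259 normalized counts in control mice and 43164 to 44710 in diseased-BWF1 mice. Summed erythroid markers, which bear on genes of heme, stayed at 3.45 to 6.62 normalized counts in control mice and 3.04 to 11.1 in diseased-BWF1 mice, with Hbb-bs, Hbb-bt and Slc4a1 at 0 in every library. Of the monocyte markers, Ccr2 was at 2.30 to 10.8 normalized counts in control mice and 6.08 to 31.3 in diseased-BWF1 mice, and Plac8 at 2.06 to 23.2 and 6.05 to 23.3, with overlapping groups. Their part in the results below was not tested.

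In PMs from diseased-BWF1 mice, 3 of the 10 genes lay below control PMs in every mouse, namely Trf, Ftl1 and Blvrb. None of the 9 members that could be tested passed the threshold of edgeR's quasi-likelihood test (Benjamini-Hochberg adjusted p under 0.05 over 10505 genes and a fold change of at least 1.5), where 1.22% of all tested genes were called. With DESeq2, 3 members were called, all lower, where 2.97% of the genes with an adjusted p were called. Groups that did not overlap, with diseased-BWF1 mice lower, were seen for 3 of 9 members and for 11.2% of all tested genes. The unadjusted p of edgeR was under 0.05 for the same 3 members and for 13.2% of all tested genes. Of the 9 members, 8 had a negative and 1 a positive log2 fold change, with a median of -0.289, against a median of 0.005 over all tested genes, 5162 of which were negative. The members were named with earlier results of these libraries known, so these shares describe the group and do not test it. In sorted bulk RNA, fewer cells that express a gene and less RNA per cell cannot be told apart.

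**Figure D1:**
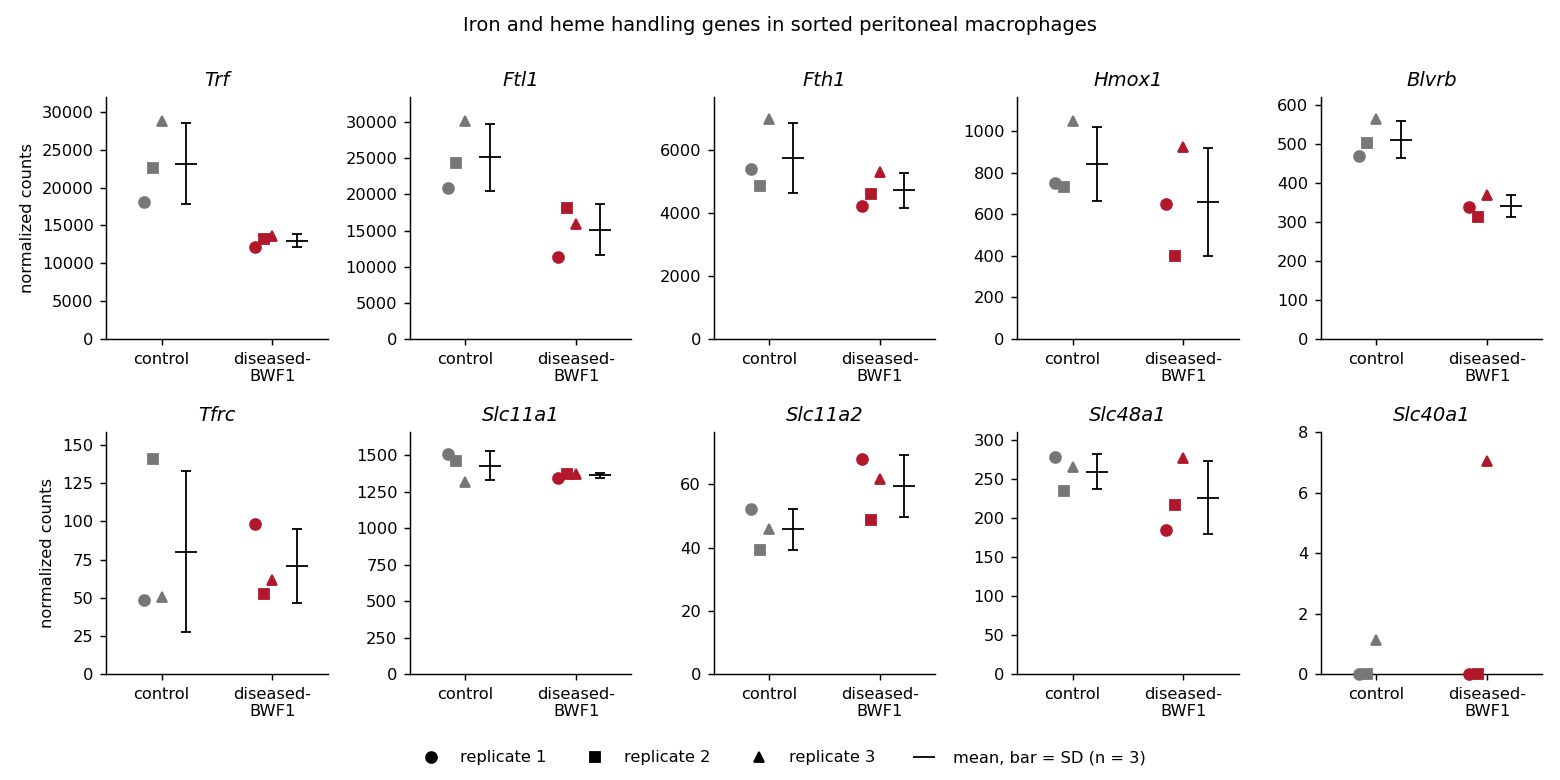
Normalized counts of the 10 genes (vertical axes, linear from 0, each with its own scale) in 3 control mice (grey) and 3 diseased-BWF1 mice (red). Marker shapes give the replicate number, and black bars give the mean and SD of 3 mice except for Slc40a1, which had 0 to 7 counts per library. Red points lie below all grey points for Trf, Ftl1 and Blvrb.

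The genes differed widely in level. On a per-length scale, as normalized counts per kilobase of the curated transcripts, the order in control PMs was Ftl1 (25976 ± 4789, SD, n = 3), Trf (9008 ± 2093), Fth1 (6199 ± 1189), Hmox1 (537.6 ± 113.3), Blvrb (500.2 ± 45.1), Slc11a1 (421.9 ± 15.9), Slc48a1 (102.2 ± 8.81), Tfrc (16.4 ± 10.8), Slc11a2 (13.4 ± 2.44) and Slc40a1 (0 on curated records in every control mouse). Trf and Fth1, Hmox1 and Blvrb, and Tfrc and Slc11a2 were neighbours whose values overlapped between mice. In diseased-BWF1 PMs, Ftl1 was again the highest at 15633 ± 3627 per kilobase. Fth1 (5089 ± 595) and Trf (5058 ± 313) were then level within their spread. As a share of all counts on genes, the 10 genes together took 1.25%, 1.40% and 1.79% in control mice and 0.823%, 1.01% and 1.00% in diseased-BWF1 mice. Ftl1 and Trf made up most of this share, with 1.02%, 1.20% and 1.52% in control mice and 0.635%, 0.825% and 0.782% in diseased-BWF1 mice. Ranked by mean normalized counts, not corrected for length, Ftl1 was the 8th and Trf the 10th most abundant gene in control PMs. They were the 13th and the 15th in diseased-BWF1 PMs.

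Trf encodes transferrin, the secreted protein that carries ferric iron, and lies on chromosome 9 (103208876 to 103230286, GRCm38.p6). Control mice had 18092, 22580 and 28808 normalized counts, and diseased-BWF1 mice had 12100, 13275 and 13640. The lowest control mouse was still above the highest diseased-BWF1 mouse, and the control mice were spread more widely. The means were 23160 ± 5381 and 13005 ± 805 (SD, n = 3), a level 1.79-fold higher in control mice. This was a log2 fold change of -0.84 (standard error, SE, 0.20, 95% interval from -1.31 to -0.37), with an adjusted p of 0.12 in edgeR's quasi-likelihood test and of 0.00202 with DESeq2. The exact two-sided permutation test gave p = 0.1, which is the lowest value possible with 3 mice in each group. When DESeq2 was refitted without each mouse in turn, Trf was called in 6 of 6 fits, with an adjusted p of at most 0.0493, and the edgeR log2 fold change then stayed between -0.99 and -0.65. Of the stretches of 75 bases in its transcript, the read length, 78.6% also occur in the annotated gene Gm20425. Reads of Gm20425 cannot be told apart from those of Trf over these stretches.

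Tfrc encodes the transferrin receptor, which takes up iron-loaded transferrin, and lies on chromosome 16 (32608896 to 32632794). Control mice had 48.8, 140.9 and 50.5 normalized counts, and diseased-BWF1 mice had 98.2, 52.7 and 61.5. Control replicate 2 stood above all other mice and the groups overlapped. Between groups, Tfrc had a log2 fold change of -0.17 (SE 0.46, 95% interval from -1.25 to 0.90, edgeR adjusted p = 0.909). Without control replicate 2 it became 0.52, and without diseased-BWF1 replicate 2 it was 0.005, so the data give Tfrc no direction. The raw counts behind these values ranged from 44 to 137 per library.

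Slc11a1 encodes NRAMP1, which pumps metal ions out of the phagosome, and its mRNA was even between the groups. Control mice had 1508, 1460 and 1320 normalized counts, and diseased-BWF1 mice had 1346, 1372 and 1375. All 3 diseased-BWF1 mice lay within the range of the control mice. Slc11a1 had a log2 fold change of -0.07 (SE 0.12, edgeR adjusted p = 0.851), and its 95% interval from -0.35 to 0.21 leaves out a fold change of 1.5 in either direction. The predicted record XM_006495774.1 took 33.5%, 32.0% and 29.2% of the gene's counts in control mice and 44.6%, 26.2% and 30.0% in diseased-BWF1 mice, so the split between records overlapped too.

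Slc11a2 encodes DMT1, the transporter that moves ferrous iron out of the endosome after uptake of transferrin. It was the only tested member with a positive log2 fold change. Control mice had 52.1, 39.1 and 45.9 normalized counts, and diseased-BWF1 mice had 68.0, 48.6 and 61.5. The groups overlapped, since diseased-BWF1 replicate 2 lay below control replicate 1. Slc11a2 had a log2 fold change of 0.37 (SE 0.21, 95% interval from -0.12 to 0.86, edgeR adjusted p = 0.511). Between 38 and 72 reads per library were counted over 7 records. Of the 72 reads of diseased-BWF1 replicate 1, 28 were on the predicted record XM_006520579.3, which was at 0 in every other library, and on curated records alone the log2 fold change was 0.14.

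The ferritin chains were both lower on average in diseased-BWF1 mice, and the L chain gave the wider gap. Ftl1, the L chain gene on chromosome 7 (45457944 to 45459886), had 20942, 24375 and 30117 normalized counts in control mice and 11290, 18175 and 15932 in diseased-BWF1 mice. The highest diseased-BWF1 mouse lay below the lowest control mouse. The means were 25144 ± 4635 and 15133 ± 3511 (SD, n = 3), a level 1.67-fold higher in control mice. This was a log2 fold change of -0.74 (SE 0.23, 95% interval from -1.28 to -0.20), with an adjusted p of 0.223 in edgeR's quasi-likelihood test and of 0.0443 with DESeq2. The exact two-sided permutation test gave p = 0.1. The call with DESeq2 was kept in 2 of 6 fits that each left out a mouse, and it was lost without control replicate 2 or 3 and without diseased-BWF1 replicate 1 or 3, with an adjusted p of up to 0.238. Of the stretches of 75 bases in the Ftl1 transcript, 69.9% also occur in 6 other annotated genes, among them Ftl1-ps1, Ftl2-ps and Gm15590, and Ftl1-ps1 and Ftl2-ps have no record in the files. Reads of such copies cannot be told apart from those of Ftl1 over these stretches.

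Fth1, the H chain gene on chromosome 19 (9980600 to 9985111), had 5403, 4877 and 6998 normalized counts in control mice and 4235, 4622 and 5325 in diseased-BWF1 mice. The groups overlapped, because diseased-BWF1 replicate 3 lay above control replicate 2. For Fth1, the log2 fold change was -0.29 (SE 0.18, 95% interval from -0.72 to 0.14, edgeR adjusted p = 0.56). The L to H ratio compares both chains within a library and does not depend on the normalization between libraries. Per kilobase, this ratio was 3.72, 4.80 and 4.13 in control mice and 2.56, 3.77 and 2.87 in diseased-BWF1 mice. Its mean was lower in diseased-BWF1 mice, but replicate 2 of that group reached into the control range (exact two-sided permutation test, p = 0.2, where 0.1 is the smallest possible). An unequal shift of the chains was therefore not shown. The ratio of Trf to Ftl1 was 0.325, 0.349 and 0.360 in control mice and 0.404, 0.275 and 0.322 in diseased-BWF1 mice (exact two-sided permutation test, p = 0.7).

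**Figure D2:**
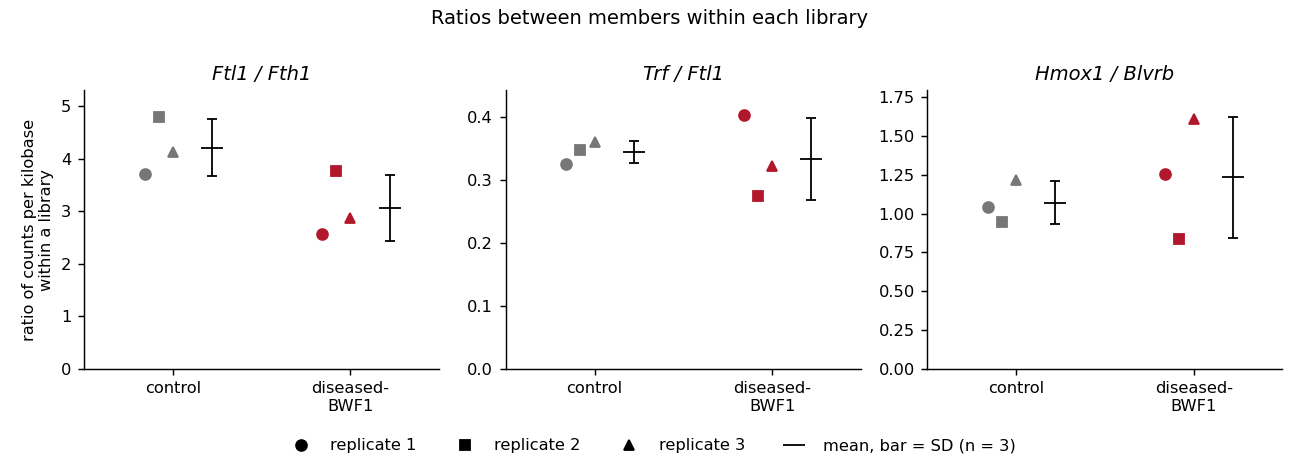
Ratios of counts per kilobase between members, computed within each library (vertical axes, linear from 0), for Ftl1 over Fth1, Trf over Ftl1 and Hmox1 over Blvrb in 3 control mice (grey) and 3 diseased-BWF1 mice (red). Black bars give the mean and SD of 3 mice, and the groups overlap in all 3 panels.

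Slc48a1 encodes HRG1, which carries heme from the phagolysosome into the cytosol. Control mice had 278.0, 234.5 and 265.3 normalized counts, and diseased-BWF1 mice had 184.1, 216.7 and 276.3. Diseased-BWF1 mice spanned a wider range that included most control values. The difference on the log2 scale was -0.21 (SE 0.17, 95% interval from -0.60 to 0.19, edgeR adjusted p = 0.663).

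Hmox1 encodes the inducible heme oxygenase, which opens the heme ring and frees its iron, and lies on chromosome 8 (75093618 to 75100593). Control mice had 750.4, 731.4 and 1048 normalized counts, and diseased-BWF1 mice had 651.5, 402.1 and 924.9. Replicate 3 was the highest mouse of each group, and the groups overlapped. This gave a log2 fold change of -0.36 (SE 0.30, 95% interval from -1.06 to 0.35, edgeR adjusted p = 0.67), and it ranged from -0.68 to -0.10 when 1 mouse was left out.

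Blvrb encodes biliverdin reductase B, which also acts as a flavin reductase, and lies on chromosome 7 (27447978 to 27465981). Control mice had 470.0, 503.0 and 563.8 normalized counts, and diseased-BWF1 mice had 339.9, 314.0 and 369.1. The groups were well apart, with little spread inside each. The means were 512.3 ± 47.6 and 341.0 ± 27.6 (SD, n = 3), a level 1.51-fold higher in control mice. This was a log2 fold change of -0.59 (SE 0.13, 95% interval from -0.89 to -0.29), with an adjusted p of 0.0937 in edgeR's quasi-likelihood test and of 0.0188 with DESeq2. The exact two-sided permutation test gave p = 0.1. The fold change lies at the edge of the 1.5-fold threshold. The call with DESeq2 was kept in 2 of 6 fits that each left out a mouse and lost without control replicate 2 or 3 and without diseased-BWF1 replicate 1 or 2. Within libraries, the ratio of Hmox1 to Blvrb per kilobase was 1.04, 0.946 and 1.22 in control mice and 1.26, 0.835 and 1.61 in diseased-BWF1 mice (exact two-sided permutation test, p = 0.6).

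Slc40a1 encodes ferroportin, the exporter through which iron leaves macrophages, and its mRNA was barely detected. The raw counts were 0, 0 and 1 in control mice and 0, 0 and 7 in diseased-BWF1 mice, so only diseased-BWF1 replicate 3 rose above the floor of 3 counts. No fold change is given and no difference was detectable at this depth. In the same mouse, Cd163, the scavenger receptor for hemoglobin bound to haptoglobin, had 1599 normalized counts, against 227.6 and 136.7 in the other diseased-BWF1 mice and 370.7, 481.4 and 635.0 in control mice. Between groups, Cd163 had a log2 fold change of 0.39 (95% interval from -1.54 to 2.33, edgeR adjusted p = 0.881). DESeq2 called Cd163 lower without diseased-BWF1 replicate 3. A link between Cd163 and Slc40a1 in this mouse was not tested.

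**Figure D3:**
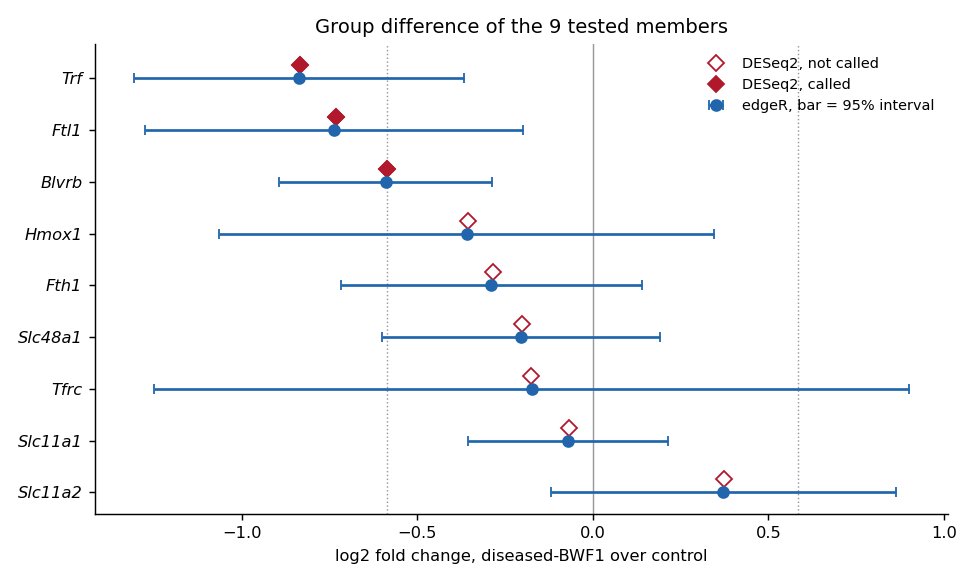
Log2 fold change of diseased-BWF1 over control mice for the 9 tested members (horizontal axis). Blue points and bars give edgeR's estimate and its 95% interval, diamonds give DESeq2's estimate, filled where called, and dotted lines mark a 1.5-fold change. The intervals of Trf, Ftl1 and Blvrb lie below 0, while those of the other 6 members include 0.

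The remaining genes of iron and heme metabolism were read from 7 lists holding 67 genes, of which 50 could be tested. Of these, 21 had a positive and 29 a negative log2 fold change, with a median of -0.066. By edgeR, Hp rose and Epas1 fell, and the other 48 did not pass. Groups did not overlap for 10 genes lower in diseased-BWF1 mice (Mcoln1, Slc22a17, Epas1, Slc46a1, Hmox2, Blvra, Por, Srxn1, Prdx1 and Me1) and for 3 genes higher (Hp, Bmp6 and Flvcr1). Over all tested genes, 11.2% were lower and 9.59% were higher without overlap.

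Hp encodes haptoglobin, which binds free hemoglobin and is also made by myeloid cells. Control mice had 188.6, 160.5 and 281.3 normalized counts, and diseased-BWF1 mice had 726.1, 739.3 and 1019. Every diseased-BWF1 mouse had more than any control mouse. Hp had a log2 fold change of 1.98 (SE 0.25, edgeR adjusted p = 0.0192), a 3.93-fold higher level. Its adjusted p with edgeR rose to as much as 0.0816 when 1 mouse was left out, and Hp was then called only without control replicate 3, while DESeq2 called it in all 6 such fits. Hp was not called from curated mRNA records with edgeR. Neutrophils also carry Hp. The 7 neutrophil markers summed to 8.27 to 14.9 normalized counts in control mice and 11.1 to 18.2 in diseased-BWF1 mice. Ly6g and Retnlg were at 0 in every library. The part of neutrophils or monocytes in the Hp difference was not tested.

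Epas1 encodes HIF-2α, a transcription factor that controls iron genes and whose own mRNA is known to carry an iron-responsive element. Control mice had 774.4, 1079 and 833.7 normalized counts, and diseased-BWF1 mice had 203.0, 255.2 and 299.5. Even the highest diseased-BWF1 mouse was far below the lowest control mouse. Epas1 had a log2 fold change of -1.83 (SE 0.20, edgeR adjusted p = 0.0117), a level 3.56-fold higher in control mice. The edgeR call was lost without diseased-BWF1 replicate 1 or 2, with an adjusted p of at most 0.0589, and DESeq2 called Epas1 in all 6 fits that left out a mouse. Hif1a, the related factor, had a log2 fold change of 0.06 (edgeR adjusted p = 0.883).

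No gene of heme breakdown passed edgeR's test, although Blvra and Por lay lower in every diseased-BWF1 mouse. Besides Hmox1 and Blvrb, this list held 7 genes, 6 of them tested and 5 with a negative log2 fold change, with a median of -0.250. Of the 6, 3 had an unadjusted p of edgeR under 0.05, against 13.2% of all tested genes, and so few genes do not test the list. Blvra, biliverdin reductase A, had 134.0, 164.6 and 184.9 normalized counts in control mice and 93.5, 97.2 and 95.8 in diseased-BWF1 mice. Por, the reductase that feeds electrons to heme oxygenase and to cytochrome P450 enzymes, had 214.3, 268.5 and 298.6 against 149.2, 170.1 and 163.4. For both genes the groups were apart and the diseased-BWF1 mice were close together. The adjusted p was 0.0848 for Blvra and 0.0997 for Por in edgeR's quasi-likelihood test, and 0.0446 and 0.0407 with DESeq2, whose calls were each kept in 1 of 6 fits that left out a mouse. Hmox2, the constitutive heme oxygenase, had a log2 fold change of -0.33 (edgeR adjusted p = 0.37). Bach1 and Nfe2l2, which encode the repressor and the activator (NRF2) of Hmox1, had log2 fold changes of 0.03 and -0.11, with adjusted p-values of 0.954 and 0.787 in edgeR's quasi-likelihood test. Spic, a factor of red pulp macrophages that handle iron, was below the filter at 1.15 to 3.09 normalized counts.

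**Figure D4:**
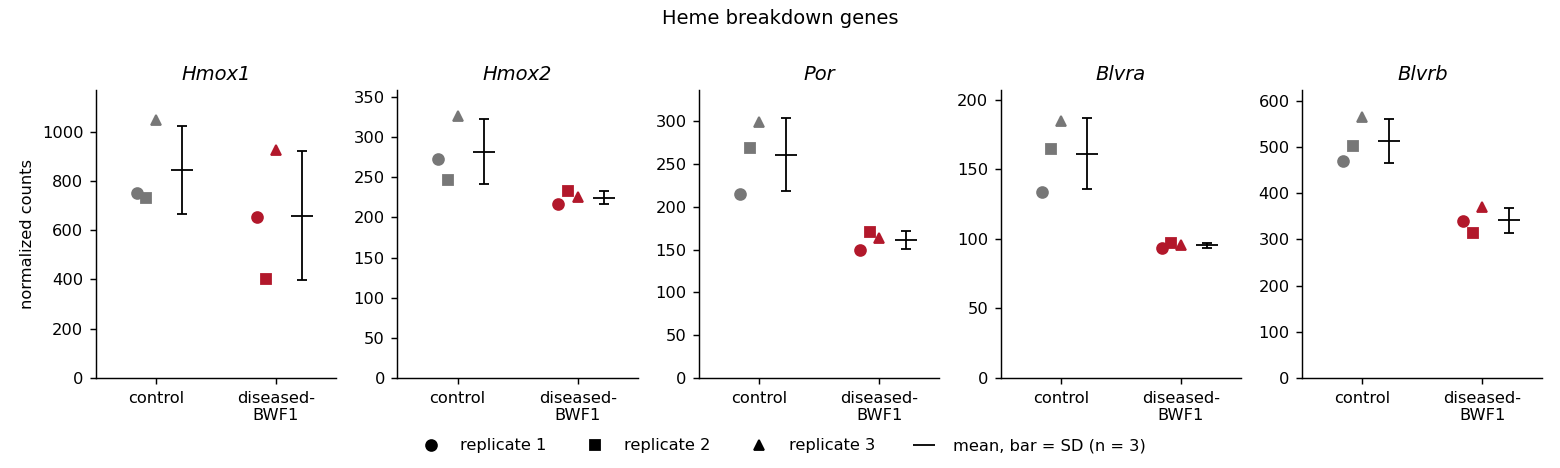
Normalized counts of the heme oxygenases Hmox1 and Hmox2, the reductase Por and the biliverdin reductases Blvra and Blvrb (vertical axes, linear from 0) in 3 control mice (grey) and 3 diseased-BWF1 mice (red), with the mean and SD of 3 mice in black. The groups are apart for all but Hmox1.

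Among 8 tested NRF2 target genes, 6 had a negative log2 fold change and the median was -0.126. Prdx1, a peroxiredoxin that removes peroxides, had 767.0, 751.0 and 875.0 normalized counts in control mice and 463.6, 509.4 and 547.7 in diseased-BWF1 mice. All control mice were above all diseased-BWF1 mice. Prdx1 had a log2 fold change of -0.66, with an adjusted p of 0.0716 in edgeR's quasi-likelihood test and of 0.00201 with DESeq2, which called it in 5 of 6 fits that left out a mouse. Srxn1, which repairs oxidized peroxiredoxins, had a log2 fold change of -0.65 (edgeR adjusted p = 0.149). Gclm and Gclc, the subunits of the enzyme that starts glutathione synthesis, were at 0.003 and -0.003 on the same scale.

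Genes of iron uptake other than Hp did not pass edgeR's test without covariates. Steap3, the endosomal ferrireductase that works with DMT1, had 214.3, 195.5 and 109.1 normalized counts in control mice and 63.3, 57.7 and 125.1 in diseased-BWF1 mice. The groups overlapped through control replicate 3 and diseased-BWF1 replicate 3, with a log2 fold change of -1.09 (SE 0.36, edgeR adjusted p = 0.254). Steap3 was called lower by edgeR with age as a covariate, and by DESeq2 without control replicate 3 or without diseased-BWF1 replicate 3. Mcoln1, a lysosomal cation channel that can release iron, had a log2 fold change of -0.70 (edgeR adjusted p = 0.121). Slc22a17, a receptor for lipocalin-2, was at -0.73 (edgeR adjusted p = 0.292).

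The iron sensors and the genes of iron storage turnover had log2 fold changes near 0. Aco1 and Ireb2, which encode the iron regulatory proteins that bind the hairpins shown above, had log2 fold changes of -0.14 and 0.14, and Fbxl5, which marks Ireb2 protein for degradation when iron is present, was at -0.16. Ncoa4, the receptor that delivers ferritin to the autophagosome, was at -0.01, with 523.6 to 593.2 normalized counts in control mice and 514.5 to 588.3 in diseased-BWF1 mice. Their adjusted p-values lay between 0.707 and 0.991 in edgeR's quasi-likelihood test. The 95% interval of Fbxl5 was wide, from -0.87 to 0.54. Hamp and Hjv had 0 counts in every library.

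No gene of heme synthesis passed the test. Of 8 tested genes, 4 were positive and 4 negative, with a median log2 fold change of 0.008, no gene with an unadjusted p under 0.05 and no groups apart. Alas1, the first enzyme of the pathway outside erythroid cells, had a log2 fold change of -0.22 (edgeR adjusted p = 0.599). Of 7 tested heme transport genes, 3 were positive and 4 negative. Slc46a1, which carries folate and heme, had 18.2, 18.5 and 20.7 normalized counts in control mice and 12.3, 10.1 and 7.06 in diseased-BWF1 mice. The groups were apart at this low level (log2 fold change -0.95, edgeR adjusted p = 0.281). Flvcr1, a heme exporter, had a log2 fold change of 0.42 (edgeR adjusted p = 0.478).

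**Figure D5:**
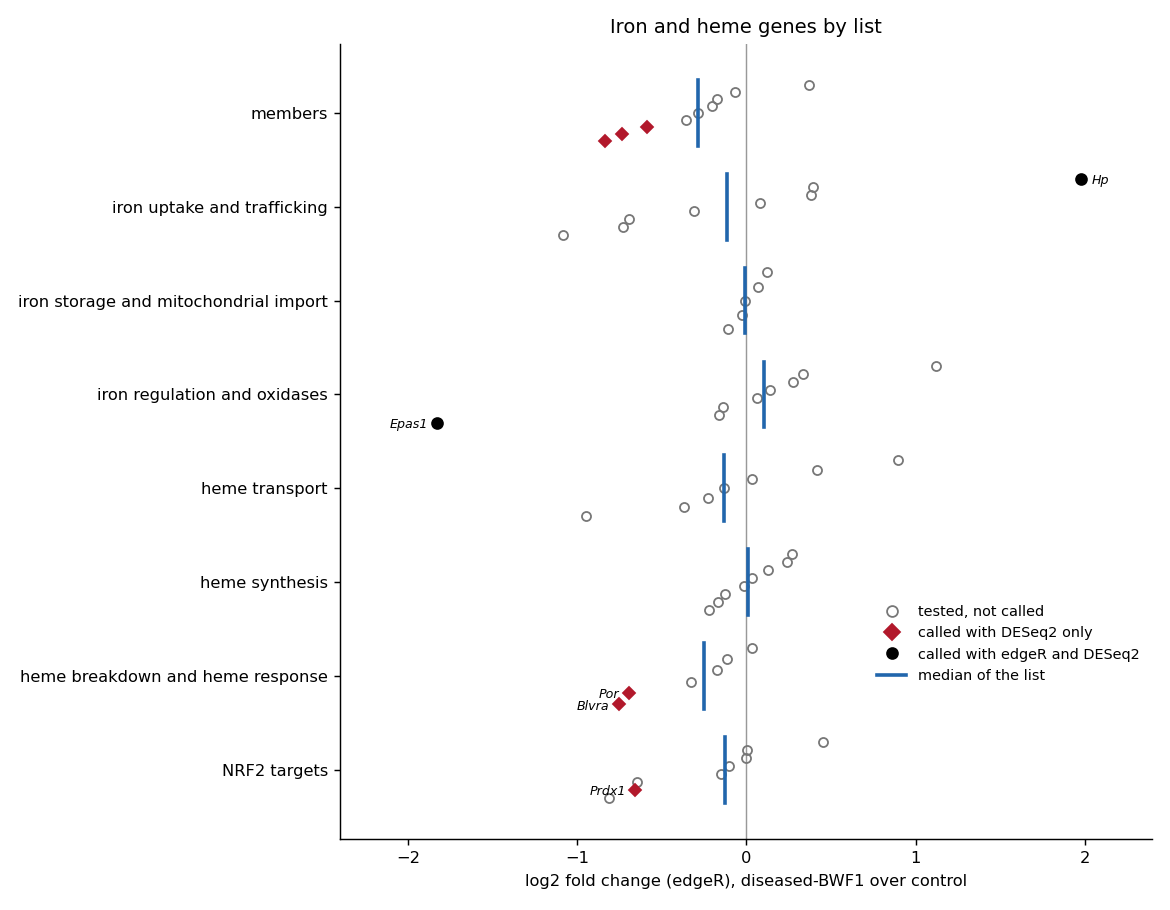
Log2 fold change of diseased-BWF1 over control mice (horizontal axis, edgeR) for each tested gene of the 10 members and of the 7 lists of other iron and heme genes, with the median of each list as a blue line. Filled black circles are the genes called by edgeR and DESeq2 (Hp and Epas1), red diamonds those called by DESeq2 alone (Trf, Ftl1 and Blvrb among the members, and Blvra, Por and Prdx1), and open circles those not called.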

How the data were processed

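For each mouse the authors deposited an estimated count for each of 107193 RefSeq transcript records, given as whole numbers without normalization. The submitters' processing notes list Salmon 0.8.0, DESeq2 and GRCm38.p6 without saying which step each served. The libraries were stranded and read as pairs of 75 bases. Records were matched to a RefSeq gene table (86466 records, 32879 genes) and summed per gene, and the 20727 records with no gene (6.98% to 10.9% of the counts) were not used. Among these was 45S ribosomal RNA, at 1.25% to 4.79%.

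edgeR 4.0.16 in R 4.3.3 (filterByExpr, TMM, glmQLFit and glmQLFTest, no covariate) was fitted to all 6 libraries, with Benjamini-Hochberg adjustment over 10505 genes. DESeq2 1.42.0, the package the study used, was run on the same sums. Normalized counts use DESeq2's size factors (0.871 to 1.21), and errors are SDs over 3 mice. The code was tested on simulated data. Per-length levels use counts on curated records and the length of the matching GENCODE transcript. Hairpins were searched in GENCODE transcripts.

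The members, lists, named genes and tests were chosen with earlier results of these data known. Named were all members, pathway genes called or without overlap between groups, and genes that complete a group, while Steap3, Hif1a, Gclm, Gclc, Hamp and Hjv were named after their values were seen. Alternatives were DESeq2, other normalizations and filters, the replicate number as a block, age, robust dispersion, limma-voom 3.58.1, curated records and each mouse left out. B cell markers summed to 14.4 to 24.1 normalized counts in control and 4.03 to 12.3 in diseased-BWF1 mice, T cell markers to 1.15 to 11.3 and 5.06 to 12.3, dendritic cell markers to 38.1 to 44.8 and 33.3 to 53.8, mast cell markers to at most 2.30 and mesothelial markers to at most 2.48 in any mouse. Some marker genes are not reported here.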

Additional observations from a re-analysis of the deposited data

How the results depend on the processing

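Of the 9 tested members, 8 kept their direction in all 25 alternatives. Tfrc ranged from -0.493 to 0.516 without each mouse, and became positive without control replicate 2 (0.516 with edgeR, 0.512 with DESeq2) and without diseased-BWF1 replicate 2 (0.005). In the edgeR and limma-voom fits no member was called. DESeq2 called 3 members, 1 on curated records (Trf), and 1 to 3 without each mouse in turn. On curated records with DESeq2, Blvrb had an adjusted p of 0.00922 but a log2 fold change of -0.572, just short of 1.5-fold. Ftl1 had an adjusted p of 0.0614 in that fit. Of the pathway genes, edgeR called 2, 1 on curated records, 3 with age as a covariate (Steap3 added) and 0 to 2 without each mouse, and DESeq2 called 5, and 3 to 5 without each mouse. Over all genes, edgeR called 128. It called 259 with no low-count filter, 84 with at least 10 counts in every library, 16 on curated records and 21 to 51 without each mouse. DESeq2 called 369, 259 on curated records and 249 to 296 without each mouse. The causes were not tested.

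Same-numbered mice are different animals, so the numbers were not taken to pair the mice. The deviations of same-numbered mice from the group means correlated at 0.117, 0.00556 and 0.157. Of 6 mice, 4 were closest to their own number, and whether same-numbered libraries share an effect was not tested. With the replicate number as a block, edgeR called 38 genes, 0 members and 2 pathway genes, and DESeq2 called 242 genes, 2 members (Ftl1 and Trf) and 3 pathway genes. The fits with DESeq2 on curated records, with its block and without each mouse, and all alternatives for the pathway genes, were chosen after seeing the data. At this depth Slc40a1 could not be compared, and Tfrc and Slc11a2 rest on 38 to 137 counts per library.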
